A study of Mus musculus with 12 samples.

Results

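The redox genes of elicited mouse peritoneal macrophages were followed after exposure to MALP-2, a mycoplasma-type lipopeptide that acts through TLR2 and TLR6. The 31 genes were taken from a list of 8 role groups: regulators and targets of NRF2, dismutases and catalase, glutathione enzymes, peroxiredoxins, thioredoxins, metallothioneins and subunits of the phagocyte NADPH oxidase. The list was chosen with earlier results of these data known. Where several probesets stood for a gene, the one of highest mean was used, taken over 11 arrays that exclude the double knockout at 0 h. A usable probeset was found for 28 of the 31 among 18193 genes. Prdx1, whose probesets are annotated to several genes, and Prdx5 and Prdx6 are not analysed here, so the peroxiredoxins are represented by Prdx2 and Prdx3. The cells came from mice lacking IRAK1 together with IRAK2 (the double knockout), from mice lacking IRAK2 alone, and from wild-type mice. IRAK1 and IRAK2 are kinases of the complex that carries Toll-like receptor signals. Each genotype was sampled unstimulated (0 h) and after 2, 4 and 8 h of MALP-2 at 100 ng/ml, with 1 array for each of the 12 combinations. All the macrophages had been drawn to the peritoneum with thioglycollate. The sources used here do not give the mouse strain, age or sex, the knockout alleles or any pooling of mice.

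NRF2 (encoded by Nfe2l2) is a transcription factor that KEAP1 keeps low by steering it to degradation; oxidants and electrophiles release it, and SQSTM1 can bind KEAP1 away from it. Released NRF2 binds antioxidant response elements with small Maf partners and drives genes for glutathione synthesis, quinone reduction and thioredoxin recycling. Macrophages also make superoxide on purpose: the membrane subunits CYBB and CYBA join cytosolic subunits such as NCF1 and NCF4 into an oxidase used against microbes. Superoxide dismutases turn superoxide into hydrogen peroxide, which catalase, glutathione peroxidases and peroxiredoxins remove. Metallothioneins bind zinc and copper and are induced by zinc through the factor MTF1 at metal response elements.

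Promoter windows running from 250 bases before to 50 bases after the RefSeq start site (GRCm38.p6) were found for 24 of the 28 genes. Hmox1, Gclc, Gsr and Ncf4 had none and were not scanned, and some genes had several, giving 31 windows in all. Those of both metallothioneins are shown because these neighbouring genes differed in their response. Those of Slc7a11 and Sod2 are shown because these genes had the largest responses. Capitals mark metal response element letters, TGCGCNC or TGCACNC on either strand, in the Mt2 window (chr8:94172368-94172667, plus strand) and in the Mt1 window (chr8:94178839-94179138, plus strand).
Mt2: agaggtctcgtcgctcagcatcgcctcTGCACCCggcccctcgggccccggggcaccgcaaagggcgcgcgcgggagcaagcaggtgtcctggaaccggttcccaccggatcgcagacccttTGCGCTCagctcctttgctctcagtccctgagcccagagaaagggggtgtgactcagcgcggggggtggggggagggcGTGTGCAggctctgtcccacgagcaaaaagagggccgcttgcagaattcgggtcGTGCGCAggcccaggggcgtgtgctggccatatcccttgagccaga
Mt1: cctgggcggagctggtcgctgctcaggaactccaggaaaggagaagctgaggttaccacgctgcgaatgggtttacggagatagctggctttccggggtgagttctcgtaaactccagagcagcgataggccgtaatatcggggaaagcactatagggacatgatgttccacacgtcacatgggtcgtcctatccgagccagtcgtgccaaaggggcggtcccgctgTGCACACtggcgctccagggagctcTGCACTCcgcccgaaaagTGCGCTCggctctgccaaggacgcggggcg
In the Sod2 window (chr17:13007589-13007888, plus strand) and the Slc7a11 window (chr3:50443564-50443863, minus strand) capitals mark the NF-kB letters, GGG and CC with 5 bases between them, on either strand.
Sod2: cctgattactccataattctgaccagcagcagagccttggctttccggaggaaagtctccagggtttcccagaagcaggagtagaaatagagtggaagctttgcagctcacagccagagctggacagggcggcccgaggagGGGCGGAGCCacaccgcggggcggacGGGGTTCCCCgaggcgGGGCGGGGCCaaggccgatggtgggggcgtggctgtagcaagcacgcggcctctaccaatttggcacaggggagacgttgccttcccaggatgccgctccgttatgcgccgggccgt
Slc7a11: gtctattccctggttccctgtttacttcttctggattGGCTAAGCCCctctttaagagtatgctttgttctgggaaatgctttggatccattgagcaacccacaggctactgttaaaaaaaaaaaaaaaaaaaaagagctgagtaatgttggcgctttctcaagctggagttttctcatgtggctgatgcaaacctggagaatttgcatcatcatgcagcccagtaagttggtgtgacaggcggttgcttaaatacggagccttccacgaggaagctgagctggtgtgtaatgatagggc
The Mt2 window held 4 metal response element matches and the Mt1 window held 3; 25.7% of 32851 mouse windows of this length held at least 1. The Mt2 window also held 1 match to the antioxidant response element letters TGACNNNGC, at the same position as an AP-1 match (TGANTCA). Mt1 had no match to either. NF-kB letters occurred in 50.8% of all windows and in at least 1 window of 21 of the redox genes. The Sod2 window held 3 and the Slc7a11 window 1. Antioxidant response element letters were found in 12.4% of all windows and in at least 1 window of 7 redox genes: Nfe2l2, Gclm, Txnrd1, Srxn1, Sod1, Mgst1 and Mt2. AP-1 letters were found in 7.81% of all windows and in 3 of the redox genes (Mt2, Srxn1 and Cybb). A gene was counted if any of its windows held a match, so gene counts and shares of windows are not like for like. These matches are letters in a window and not measured binding sites.

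The deposited values are on a log2 scale, so a difference of 1 is a 2-fold change, and the values over all probesets and arrays ran from 2.49 to 14.44. The double-knockout array at 0 h was unlike the rest: its correlation with the other arrays was 0.764 to 0.804, whereas the other 11 correlated at 0.954 or above, and its spike-in median was 12.38 against 10.54 to 11.07. It entered no main fit. The stimulated double-knockout arrays also had weaker 5' signal, with a 5' minus 3' difference for actin of -4.25, -4.68 and -3.87 at 2, 4 and 8 h, against -3.72 to -3.18 over the IRAK2-knockout and wild-type arrays. For Gapdh it was -5.29, -5.90 and -4.36, against -3.84 to -3.42. Irak2 in the double knockout read 5.19, 4.61 and 5.09 at 2, 4 and 8 h and in the IRAK2 knockout 5.51, 4.71 and 4.65, where wild type had 6.69, 6.29 and 5.77. Irak1 read 8.25, 8.31 and 8.11 in the double knockout and 8.48, 8.46 and 8.48 in wild type; the sources used here do not say whether the deleted exons are covered by these probes. All 9 macrophage markers with a probeset averaged in each genotype above 3.83, the median value over the 11 arrays, which is used here as a floor; their differences between genotypes are given beside the oxidase subunits.

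The first question was which of these genes changed with MALP-2 in cells that have IRAK1. The 8 IRAK2-knockout and wild-type arrays were fitted together with limma (time and genotype as factors), so each response is a mean of both genotypes, and a gene was called at a Benjamini-Hochberg adjusted p under 0.05 over 10799 genes. The p-value weighs a response against how alike it was in the 2 genotypes, not against the spread between mice. The role groups did not move as blocks. Slc7a11, Sod2, Mt2, Sqstm1 and Txnrd1 rose at least 2-fold at each of 2, 4 and 8 h, while Mt1, Nqo1, Cat and Cyba were called at no time. Hmox1, Gclc and Gclm fell at 2 h and rose by 8 h. Of the 28 genes, 8 were higher and 7 lower at 2 h (28.6% and 25%), where 16.3% and 29.1% of all genes were. At 4 h 13 were higher and 5 lower (46.4% and 17.9%; all genes 17.3% and 23.2%), and at 8 h 13 were higher and 3 lower (46.4% and 10.7%; all genes 14.7% and 18.1%). At each time the share called higher among the 28 lay above that background. The genes were chosen with earlier results of these data known, so this excess cannot be told apart from that choice. Calls in the same direction at all 3 times were made for 7 higher genes and 2 lower ones (8.27% and 12.7% of all genes), and 7 were called at no time (40.8% of all genes). The median response of the 28 was -0.10, 0.23 and 0.26 at 2, 4 and 8 h, beside -0.12, -0.04 and -0.03 over all genes. Centring each array on its median moved the share of higher calls among all genes at 2 h to 51.8%, against 35.8% as deposited, and gave 10 higher and 3 lower calls among the 28.

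**Figure D1:**
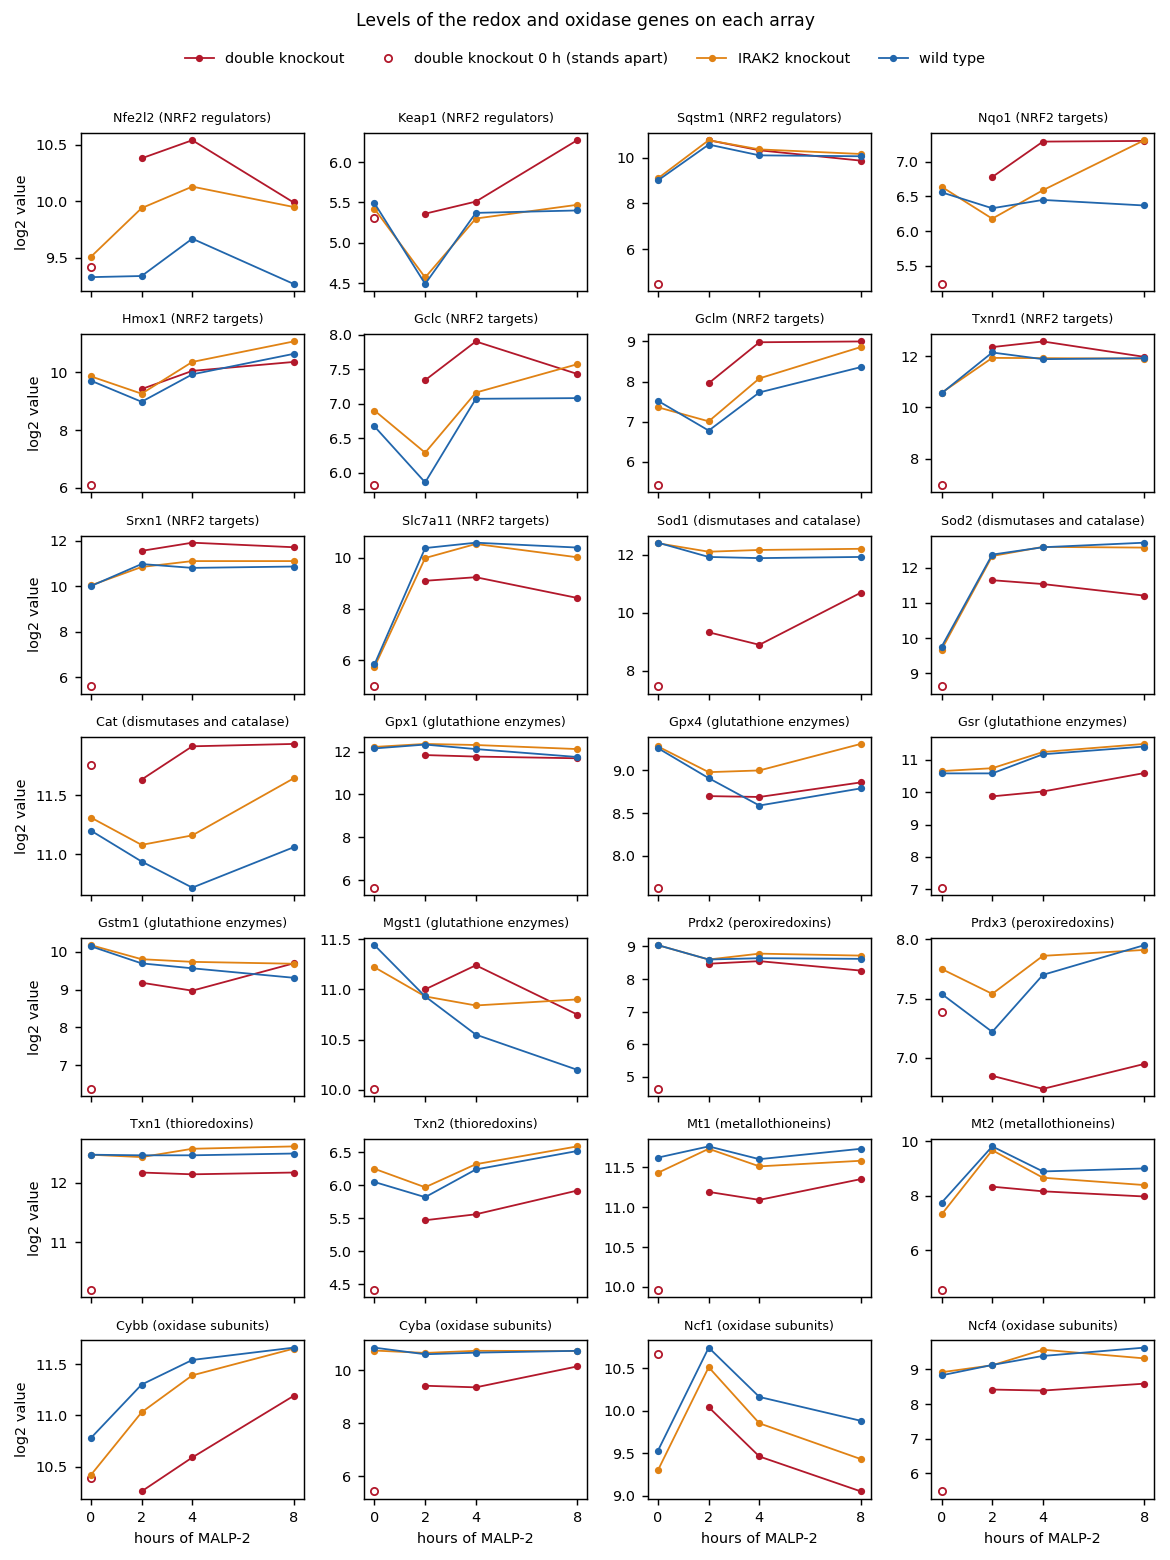
Log2 value (vertical axis, scaled separately per gene) against hours of MALP-2 for 28 genes, 1 array per point, in the double knockout (red), the IRAK2 knockout (orange) and wild type (blue); the open red point is the double-knockout 0 h array, which stands apart. At 2, 4 and 8 h Slc7a11 and Sod2 lie above the 0 h values of the IRAK2 knockout and wild type in all genotypes. At those times they are lowest in the double knockout, whereas Nfe2l2 and Cat are highest there.

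Slc7a11, the cystine importer that feeds glutathione synthesis, had the largest response. It read 9.10, 9.24 and 8.43 at 2, 4 and 8 h in the double knockout, 5.73, 9.99, 10.54 and 10.02 at 0, 2, 4 and 8 h in the IRAK2 knockout, against 5.83, 10.38, 10.59 and 10.40 in wild type. Every stimulated array lay far above both 0 h arrays, and the double-knockout arrays lay below the others. The response was 4.41 ± 0.13, 4.79 ± 0.13 and 4.43 ± 0.13 log2 (SE of the fit) at 2, 4 and 8 h, with adjusted p-values of 7.9e-07, 6.7e-07 and 1e-06, or 21.2-, 27.7- and 21.6-fold.

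Among the other NRF2 targets the responses fell into 3 kinds. Txnrd1 (the cytosolic thioredoxin reductase) and Srxn1 (sulfiredoxin, which repairs over-oxidised peroxiredoxins) were already up at 2 h and stayed there. Txnrd1 read 12.35, 12.57 and 11.97 at 2, 4 and 8 h in the double knockout, 10.57, 11.93, 11.92 and 11.90 from 0 to 8 h in the IRAK2 knockout, against 10.55, 12.14, 11.88 and 11.92 in wild type. Its response was 1.47 ± 0.11, 1.34 ± 0.11 and 1.35 ± 0.11, and that of Srxn1 was 0.89 ± 0.13, 0.93 ± 0.13 and 0.96 ± 0.13; all 6 were called.

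The second kind dipped first. Hmox1, haem oxygenase, read 9.42, 10.05 and 10.36 at 2, 4 and 8 h in the double knockout, 9.86, 9.26, 10.36 and 11.07 from 0 to 8 h in the IRAK2 knockout, against 9.71, 8.98, 9.93 and 10.64 in wild type. Its response was -0.66 ± 0.12 at 2 h (adjusted p 0.0023), 0.36 ± 0.12 at 4 h (0.038) and 1.07 ± 0.12 at 8 h (0.00035). Gclm, the modifier subunit of the enzyme that starts glutathione synthesis, read 7.96, 8.98 and 9.0 in the double knockout, 7.36, 7.01, 8.08 and 8.86 in the IRAK2 knockout, against 7.52, 6.78, 7.73 and 8.36 in wild type. It went below the 0 h level at 2 h in both of the genotypes that could be compared with their own 0 h. The response of Gclm was -0.54 ± 0.16, 0.47 ± 0.16 and 1.17 ± 0.16 (adjusted p 0.023, 0.046 and 0.001). That of Gclc, the catalytic subunit of the same enzyme, was -0.71 ± 0.13, 0.32 ± 0.13 and 0.54 ± 0.13, with the 4 h value not called. A fall at 2 h with a rise at 8 h was called in 3 of the 28 genes and in 0.824% of all genes, a pattern picked out after the values were seen. Of the 3, only Hmox1 kept both calls under all 6 alternatives. With the stimulated double-knockout arrays added to the fit, the 2 h calls of Gclm (-0.47, adjusted p 0.093) and Gclc (-0.53, adjusted p 0.11) and the 8 h call of Gclc (0.33, adjusted p 0.35) were lost. The 2 h call of Gclm was also lost after centring (-0.40, adjusted p 0.06), and that of Gclc without the probesets that can match several transcripts (-0.38, adjusted p 0.053). The 4 h calls of Hmox1 and Gclm were lost with the added arrays (adjusted p 0.16 and 0.065) and without the filter on low values (0.051 each). Nqo1, a quinone reductase, was the third kind: no response was called, with -0.35 ± 0.23, -0.08 ± 0.23 and 0.24 ± 0.23. It read 7.31 at 8 h in the IRAK2 knockout and 6.37 in wild type.

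The regulators moved separately. Sqstm1 rose 1.61 ± 0.10, 1.18 ± 0.10 and 1.06 ± 0.10 at 2, 4 and 8 h (adjusted p 2.2e-05, 0.0001 and 0.00023). Keap1 fell by 0.92 at 2 h (SE 0.11, adjusted p 0.00029), reading 4.57 in the IRAK2 knockout and 4.49 in wild type, against 5.42 and 5.49 at 0 h. It was not called at 4 or 8 h, where it was back near its starting level (-0.12 and -0.02). Nfe2l2 itself was called at 4 h, where it rose by 0.48 ± 0.14 (adjusted p 0.024), and not at 2 or 8 h (0.22 and 0.19). Its second, dimmer probeset responded by 1.32 at 2 h, and with the mean of both probesets Nfe2l2 was called at 2 h too (0.77, adjusted p 0.00066).

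Both superoxide dismutases responded, in opposite directions. Sod2, the mitochondrial enzyme, read 11.65, 11.54 and 11.21 at 2, 4 and 8 h in the double knockout, 9.67, 12.34, 12.60 and 12.58 from 0 to 8 h in the IRAK2 knockout, against 9.75, 12.38, 12.59 and 12.72 in wild type. Its response was 2.65 ± 0.10, 2.88 ± 0.10 and 2.94 ± 0.10, or 6.28-, 7.38- and 7.68-fold (adjusted p 2.3e-06, 2.2e-06 and 2.3e-06). Sod1, the cytosolic enzyme, fell by 0.39 at 2 h and by 0.38 at 4 h (SE 0.12 each, adjusted p 0.027 and 0.031). After centring neither was called (-0.24 and -0.32), nor was either with the stimulated double-knockout arrays added (-0.48 and -0.62). Catalase, which destroys hydrogen peroxide, was not called at any time.

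The metallothioneins parted. Mt2 read 8.33, 8.16 and 7.97 at 2, 4 and 8 h in the double knockout, 7.31, 9.67, 8.66 and 8.39 from 0 to 8 h in the IRAK2 knockout, against 7.74, 9.81, 8.89 and 9.0 in wild type. It peaked at 2 h in the IRAK2 knockout and wild type and was lower at 4 and 8 h. The response was 2.21 ± 0.13, 1.25 ± 0.13 and 1.17 ± 0.13 (adjusted p 1.7e-05, 0.00024 and 0.00048). Mt1 read 11.19, 11.09 and 11.35 in the double knockout, 11.43, 11.73, 11.51 and 11.58 in the IRAK2 knockout, against 11.62, 11.76, 11.60 and 11.73 in wild type, so it was nearly flat. Its response of 0.22 ± 0.10, 0.03 ± 0.10 and 0.13 ± 0.10 was not called (adjusted p 0.12, 0.86 and 0.38); at 2 h it was called at 0.36 after centring (adjusted p 0.021), and at the deposited 0.22 with a trended prior (0.031). The 2 genes are read by different probesets, so their levels are not set against each other.

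Of the 5 glutathione enzymes 4 were called at some time (Gsr higher, and Gstm1, Mgst1 and Gpx4 lower). So were 1 of the 2 peroxiredoxins (lower) and 1 of the 2 thioredoxins (higher). Over all genes 24.9% were called higher and 35.5% lower at some time, and 40.8% at no time. Groups of 2 or 5 genes are too small to be set apart from those shares. Prdx2, a cytosolic peroxiredoxin, fell by 0.44, 0.33 and 0.37 at 2, 4 and 8 h (SE 0.10 each, adjusted p 0.0094, 0.034 and 0.027). The 4 h call of Prdx2 was lost under 4 of 5 alternatives, and with the mean of its probesets no time was called (-0.29, -0.25 and -0.10); its second probeset gave -0.14, -0.18 and 0.16. The mitochondrial Prdx3 was not called at any time (-0.26, 0.14 and 0.28). Txn2, mitochondrial thioredoxin, rose at 8 h by 0.40 ± 0.10 (adjusted p 0.019), and Txn1, its cytosolic counterpart, was within 0.08 of its 0 h level at each time. Gsr, which regenerates reduced glutathione, rose by 0.59 ± 0.10 at 4 h and 0.84 ± 0.10 at 8 h (adjusted p 0.0024 and 0.00061). Gstm1, a glutathione transferase, fell at all 3 times (-0.41, -0.52 and -0.66), and the microsomal transferase Mgst1 fell at 4 and 8 h (-0.64 and -0.79). Gpx4, which reduces lipid peroxides, fell only at 4 h (-0.47 ± 0.15, adjusted p 0.033), and Gpx1 was not called. After centring, the calls of Prdx2 at 2 and 4 h, Gstm1 at 2 h and Gpx4 at 4 h were lost. With the mean of a gene's probesets those of Gstm1 at 2 and 4 h (-0.25 and -0.41), Gpx4 at 4 h (-0.41) and Txn2 at 8 h (0.29) were lost. With the stimulated double-knockout arrays added to the fit, Gstm1 was not called at 2 or 8 h (-0.48 each) and Mgst1 was not called at 4 h (-0.55).

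Of the oxidase subunits, 3 of 4 rose at some time, as did 24.9% of all genes. The neutrophil markers S100a8 (0.43 and 0.58) and Camp (0.99 and 1.19) were higher at 4 and 8 h in the same fit, and Mmp8 was lower (-0.65 and -1.17); their part in these responses was not tested. Cybb, the catalytic membrane subunit, read 10.26, 10.59 and 11.19 at 2, 4 and 8 h in the double knockout, 10.42, 11.03, 11.39 and 11.65 from 0 to 8 h in the IRAK2 knockout, against 10.78, 11.30, 11.54 and 11.66 in wild type. It climbed steadily, by 0.57 ± 0.12, 0.87 ± 0.12 and 1.05 ± 0.12 (adjusted p 0.0057, 0.0008 and 0.00045). Ncf1, the cytosolic organiser, read 10.04, 9.46 and 9.05 in the double knockout, 9.30, 10.51, 9.85 and 9.43 in the IRAK2 knockout, against 9.53, 10.74, 10.16 and 9.88 in wild type. It had its highest value at 2 h in each of the 3 genotypes once the double-knockout 0 h array was left out, and rose by 1.21 ± 0.11 at 2 h and 0.59 ± 0.11 at 4 h (adjusted p 9.4e-05 and 0.0036). Ncf4, a phosphoinositide-binding subunit, rose by 0.60 ± 0.14 at both 4 and 8 h (adjusted p 0.0093 and 0.012). Cyba, the partner that stabilises CYBB, stayed within 0.17 of its 0 h level at each time.

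**Figure D2:**
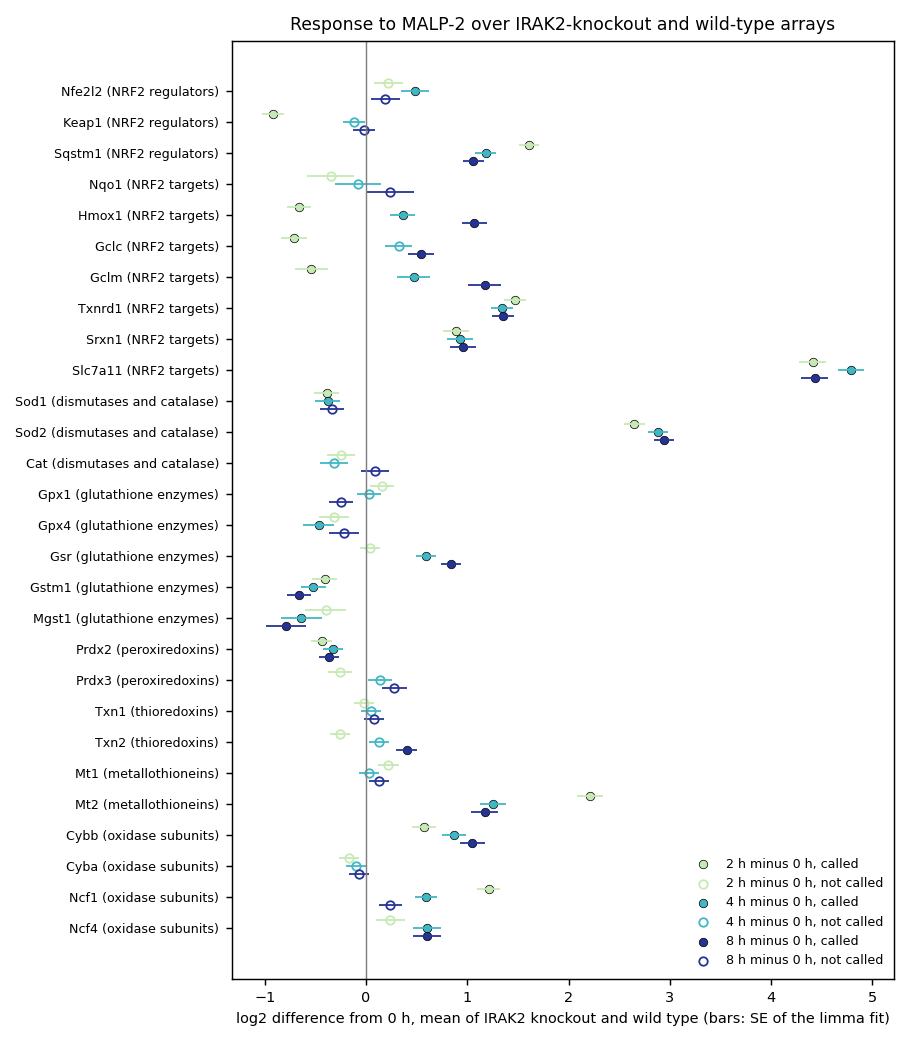
Log2 difference from 0 h (horizontal axis, mean of IRAK2 knockout and wild type; bars, SE of the limma fit) at 2, 4 and 8 h for 28 genes; filled points were called at an adjusted p under 0.05. Slc7a11, Sod2 and Mt2 lie farthest to the right, and Hmox1, Gclc and Gclm cross from left to right with time.

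The second question was what changed when both kinases were missing. Double-knockout and wild-type arrays of 2, 4 and 8 h were compared in a limma fit of the 9 stimulated arrays (genotype and time as factors, 10853 genes), whose p-value weighs a difference against how far it varied between 2, 4 and 8 h. The role groups went different ways. All 4 oxidase subunits, both metallothioneins and both thioredoxins were lower in the double knockout, as were Slc7a11 and both dismutases. Of the 7 NRF2 targets, 4 (Nqo1, Gclc, Gclm and Srxn1) were higher and 1 (Slc7a11) lower; Nfe2l2 and Keap1 were higher too. Of the 2 peroxiredoxins, Prdx3 was lower and Prdx2 was not called. In all, 7 of the 28 genes were higher and 13 lower (25% and 46.4%), where 23.7% and 17.3% of all genes were called. The higher share is near the background. The lower share lies above it, in a list that was chosen with earlier results of these data known. The median difference was -0.27 over the 28 genes, 0.74 over the NRF2 targets, -0.78 over the metallothioneins, -0.48 over the peroxiredoxins and -0.87 over the oxidase subunits, beside 0.07 over all genes. Higher calls made up 57.8% of calls over all genes as deposited and 46.1% after centring, which kept the same 7 higher calls and the same 13 lower ones and added Gpx1 as lower.

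Most of these calls were lost when a measure of RNA quality entered the fit. With the mean 5' minus 3' difference of actin and Gapdh as a covariate, an alternative added after the values were seen, 1 gene stayed called higher (Keap1, 1.14, adjusted p 0.046) and 2 lower (Slc7a11, -1.89, adjusted p 0.018, and Sod2, -1.42, adjusted p 0.039). Over all genes the covariate left 287 higher and 216 lower calls, against 2575 and 1882 without it, so the loss was not limited to the redox genes. Among those that lost their call, the differences with the covariate were 0.64 for Nfe2l2, 0.61 for Cat, -0.64 for Gsr, -0.73 for Prdx3, -0.31 for Txn1 and -0.47 for Txn2. The stimulated double-knockout arrays lay beyond all others in both 5' minus 3' differences, so genotype and this covariate overlap. With the 0 h arrays added, including the one that stands apart, Nfe2l2 and Cat were higher and Slc7a11, Sod1, Sod2, Mt2 and Cybb lower.

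Slc7a11 was lower in the double knockout at each time, by 1.54 overall (SE 0.16, adjusted p 0.00023, 2.90-fold), and its second probeset differed by -1.13. Its arrays did not overlap with wild type. All the same, it stood at least 2-fold above the mean 0 h value of the IRAK2 knockout and wild type at each stimulated time in the double knockout. In the double knockout 5, 8 and 5 of the 28 genes lay at least 2-fold above that substitute baseline at 2, 4 and 8 h, where 4.22%, 4.58% and 3.42% of all genes did, and 2, 3 and 1 lay at least 2-fold below it (5.99%, 5.77% and 3.15% of all genes). Sqstm1, Txnrd1, Srxn1, Slc7a11 and Sod2 passed it at 2 h and at 4 h. With the mean of a gene's probesets Srxn1, Slc7a11 and Sod2 passed it at each time. Sqstm1 then passed it only at 2 h and Txnrd1 at no time. With 1 array per time these counts have no test.

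Gclm was 1.02 higher in the double knockout (SE 0.16, adjusted p 0.0016), by 1.18, 1.25 and 0.65 at 2, 4 and 8 h. Its second probeset, at a similar level, gave 0.61, 0.32 and -0.27. The 2 h double-knockout value of Gclm, 7.96, lay above the 0 h values of 7.36 in the IRAK2 knockout and 7.52 in wild type. It was still the lowest of the stimulated double-knockout values (8.98 and 9.0 at 4 and 8 h). On the second probeset the 2 h double-knockout value was 7.47, beside 0 h values of 7.433 in the IRAK2 knockout and 7.445 in wild type. Without a usable 0 h array, a dip of Gclm from the double knockout's own baseline could not be assessed. Gclc was 0.89 ± 0.22 higher (adjusted p 0.012), most at 2 h (1.48), and was not called without the 2 h arrays (0.59, adjusted p 0.086) or without the 4 h arrays (0.91, adjusted p 0.07). The call of Gclc was also lost without the probesets that can match several transcripts, and its second, dim probeset gave 0.18. Hmox1, the other gene with a dip, was not called (0.09 ± 0.16, adjusted p 0.69).

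Srxn1 read 11.56, 11.92 and 11.72 at 2, 4 and 8 h in the double knockout, 10.85, 11.11 and 11.11 in the IRAK2 knockout, against 10.98, 10.81 and 10.87 in wild type. The double-knockout arrays lay above all the others, by 0.84 over wild type (SE 0.13, adjusted p 0.0013); its other probesets gave 0.86, 0.17 and -0.09, so the size of the difference rests on the brightest pair. Nqo1 was higher by 0.74 ± 0.19 (adjusted p 0.015), but not called without the 4 h arrays (0.69, adjusted p 0.1). Txnrd1 was not called (0.32 ± 0.14, adjusted p 0.11), and its 2 dimmer probesets gave -1.48 and -1.55. With the covariate the differences of Srxn1, Gclm, Nqo1 and Gclc were 0.68, 0.45, 0.44 and 0.26, none of them called.

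Nfe2l2 read 10.38, 10.54 and 9.99 in the double knockout, 9.94, 10.13 and 9.95 in the IRAK2 knockout, against 9.34, 9.67 and 9.27 in wild type at 2, 4 and 8 h. Both knockouts lay above wild type without overlap, the double knockout by 0.88 ± 0.12 (adjusted p 0.0008). The second, dimmer probeset of Nfe2l2 gave smaller differences, 0.20 in the double knockout and 0.25 in the IRAK2 knockout. Keap1 was higher in the double knockout by 0.62 ± 0.16 (adjusted p 0.013), by 0.87 at 2 h, 0.14 at 4 h and 0.86 at 8 h. It was not called when the 2 h or the 8 h arrays were left out (0.50 each time, adjusted p 0.1 and 0.08). Sqstm1 was not called (0.07 ± 0.12, adjusted p 0.66).

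Sod2 was 1.10 lower in the double knockout (SE 0.15, adjusted p 0.00091), and its 4 probesets all pointed that way, from -1.85 to -0.84. Sod1 had the largest difference of the 28 genes, reading 9.33, 8.90 and 10.69 at 2, 4 and 8 h in the double knockout, 12.10, 12.16 and 12.20 in the IRAK2 knockout, against 11.92, 11.88 and 11.92 in wild type. That is -2.27 ± 0.31 (adjusted p 0.00076, 4.81-fold lower). Its second bright probeset gave -1.01 and a dim one 0.72, and the lowest Sod1 values fell on the 2 and 4 h arrays, which also had the weakest 5' signal. With the 5' minus 3' covariate the Sod1 difference was -0.81 (adjusted p 0.12). Catalase was 0.92 ± 0.14 higher (adjusted p 0.0011), with 11.63, 11.91 and 11.93 in the double knockout and 10.94, 10.72 and 11.06 in wild type, and both its probesets were higher.

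Mt2 was 1.08 lower in the double knockout (SE 0.18, adjusted p 0.002), by 1.47 at 2 h, 0.73 at 4 h and 1.03 at 8 h. Mt1 was 0.49 lower (SE 0.11, adjusted p 0.0076). It was not called without the 2 h arrays (-0.44, adjusted p 0.058) or the 4 h arrays (-0.48, adjusted p 0.092). The Mt1 call was also lost with all 12 arrays and without the probesets that can match several transcripts. Its second, dim probeset gave -0.19. For both metallothioneins every double-knockout array lay below every wild-type array. Even so, Mt2 at 2 h read 8.33 in the double knockout, above the 0 h values of 7.31 in the IRAK2 knockout and 7.74 in wild type. With the covariate Mt2 differed by -1.14 (adjusted p 0.12) and Mt1 by -0.35 (adjusted p 0.33), neither called.

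All 4 oxidase subunits were called lower in the double knockout. Cyba read 9.42, 9.36 and 10.15 at 2, 4 and 8 h in the double knockout, 10.66, 10.74 and 10.73 in the IRAK2 knockout, against 10.61, 10.67 and 10.74 in wild type. It was lower by 1.03 (SE 0.16, adjusted p 0.0015), though it hardly moved with MALP-2 in the other genotypes. Ncf4 read 8.42, 8.39 and 8.59 in the double knockout, 9.12, 9.57 and 9.32 in the IRAK2 knockout, against 9.13, 9.39 and 9.63 in wild type, a difference of -0.91 ± 0.14 (adjusted p 0.0012). Ncf1 was lower by 0.74 (SE 0.11, adjusted p 0.00093), by 0.70, 0.70 and 0.83 at the 3 times, and its 3 probesets all pointed the same way. Cybb was lower by 0.82 (SE 0.13, adjusted p 0.0017). Its probesets disagreed: the chosen one and a dimmer one gave -0.82 and -1.45, while one almost as bright gave 0.17. With the 5' minus 3' covariate none of the 4 was called, at -0.39 for Cyba, -0.48 for Cybb, -0.71 for Ncf4 and -0.79 for Ncf1, all still negative.

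Neutrophils also carry this oxidase. Of 4 neutrophil markers tested, S100a8 and Camp were called lower in the double knockout than in wild type (-1.55 ± 0.15 and -1.18 ± 0.17, adjusted p 0.00018 and 0.00097), and Mmp8 and S100a9 were not called (-0.12 and -0.11). S100a8 read 9.41, 9.30 and 9.09 at 2, 4 and 8 h in the double knockout, 10.49, 10.81 and 10.84 in the IRAK2 knockout, against 10.67, 10.77 and 11.03 in wild type. The summed linear signal of 9 neutrophil markers ran from 661.6 to 806.9 in the double knockout, from 1570.7 to 1963.6 in the IRAK2 knockout and from 1768.7 to 2259.1 in wild type. S100a8 alone made up 82.4% to 93.6% of that sum on the 9 stimulated arrays, so it mostly shows this gene. Of the 9 markers, 3, 4 and 4 averaged at or above the floor in the double knockout, the IRAK2 knockout and wild type. Ltf, Ngp, Mpo, Elane and Cxcr2 lay below it in all genotypes. Markers of other cells also differed. Of 9 macrophage markers, Adgre1, Itgam, Fcgr1 and Cd14 were lower in the double knockout than in wild type (-0.69, -0.78, -0.56 and -1.85) and Mertk was higher (0.54). Csf1r, Cd68, Lyz2 and Msr1 were not called (0.26, -0.11, -0.16 and 0.26). Several of these markers moved with MALP-2 in the IRAK2 knockout and wild type. At 2 h Adgre1, Cd14 and Msr1 were called higher (0.43, 3.77 and 0.81) and Mertk and Fcgr1 lower (-1.78 and -1.25). Of 3 eosinophil and mast cell markers tested, Siglecf and Cpa3 were higher (1.19 and 1.20) and Tpsb2 was not called (0.14). Prg2, Epx, Ccr3 and Mcpt4 averaged below the floor in all genotypes. Of 3 B cell markers tested, Cd79a was lower (-0.59), and Ms4a1 and Ighm were not called (-0.60 and 0.32). Ighm was called lower in the IRAK2 knockout than in wild type (-1.35 ± 0.22, adjusted p 0.037), where no other tested marker was called. The part of these cell types in the differences of the oxidase and of the other groups was not tested, and in such bulk samples fewer cells of a type and less RNA per cell cannot be told apart.

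Prdx3 read 6.85, 6.74 and 6.95 at 2, 4 and 8 h in the double knockout, 7.54, 7.86 and 7.91 in the IRAK2 knockout, against 7.22, 7.70 and 7.95 in wild type. It was lower by 0.77 (SE 0.14, adjusted p 0.003), with no overlap, but was not called without the 4 h arrays (-0.68, adjusted p 0.052). Prdx2 did not pass the test (-0.19 ± 0.11, adjusted p 0.2), and a second, dim probeset gave 1.27. Txn2 was lower by 0.54 (SE 0.11, adjusted p 0.0052) and Txn1 by 0.31 (SE 0.10, adjusted p 0.042). The Txn1 call was lost without the arrays of any 1 time, and that of Txn2 without the 4 h arrays (-0.47, adjusted p 0.09). Gsr was lower by 0.89 (SE 0.12, adjusted p 0.00074), and Gpx1, Gpx4, Gstm1 and Mgst1 were not called (-0.30, -0.02, -0.24 and 0.44).

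Against the IRAK2 knockout, which differs from the double knockout in IRAK1, 4 genes were higher (Keap1, Gclm, Srxn1 and Cat) and 15 lower (14.3% and 53.6%; 22.1% and 16.7% of all genes). The 15 were Slc7a11, both dismutases, Gpx1, Gpx4, Gsr, Prdx3, both thioredoxins, both metallothioneins and all 4 oxidase subunits. The largest were Sod1 at -2.51 ± 0.31 (adjusted p 0.00057), Slc7a11 at -1.26 ± 0.16 (0.00065), Cyba at -1.07 ± 0.16 (0.0014) and Sod2 at -1.04 ± 0.15 (0.0013). This comparison uses the same double-knockout arrays as the one with wild type and is not independent of it. Of these 19 calls, 2 (Slc7a11 and Sod2) were left with the 5' minus 3' covariate. With the 12 arrays 5 genes were called (Slc7a11, Sod1, Sod2, Prdx3 and Txn2, all lower), and 10 were called when the 2 h or the 4 h arrays were left out.

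**Figure D3:**
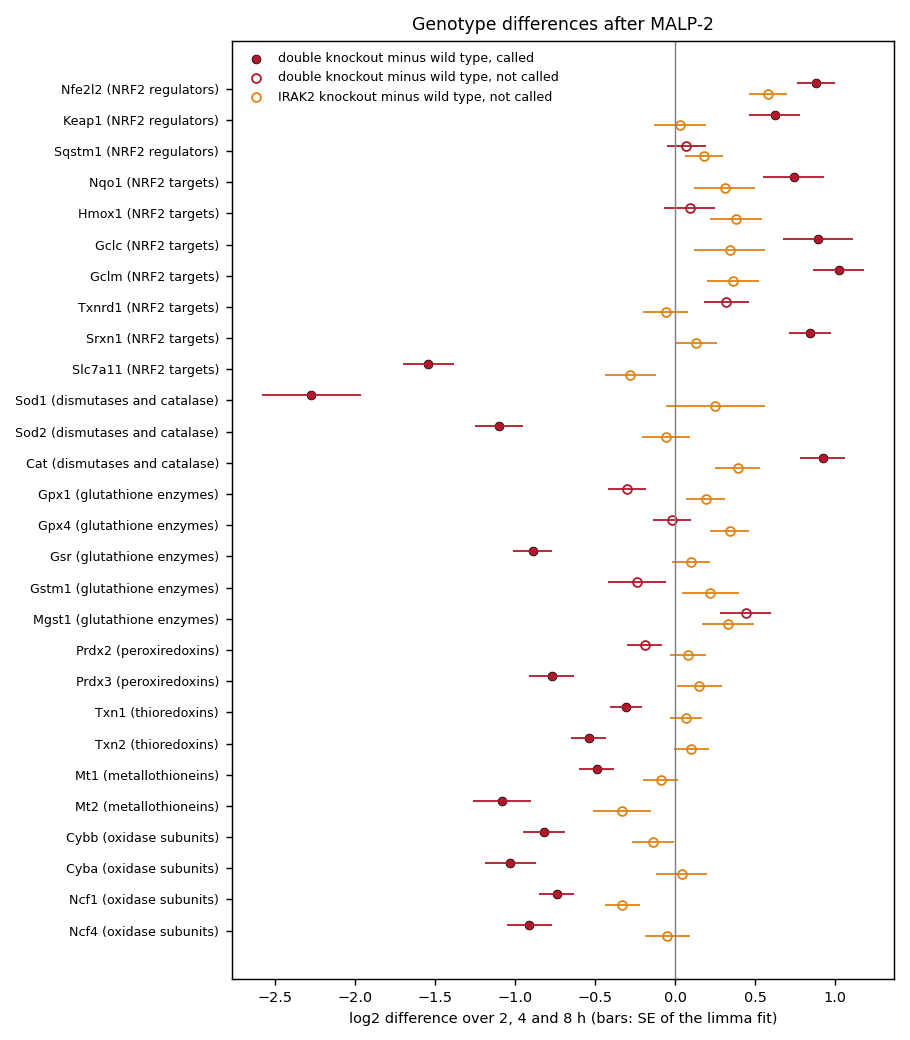
Log2 difference over 2, 4 and 8 h (horizontal axis; bars, SE of the limma fit) of the double knockout (red) and the IRAK2 knockout (orange) from wild type, for 28 genes; filled points were called. The red points of the oxidase subunits and metallothioneins lie left of 0, those of Nfe2l2, Gclc, Gclm, Srxn1 and Cat lie right of it, and no orange point is filled.

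No difference between the IRAK2 knockout and wild type passed the test among these genes. The limma fit called 0 of the 28 genes, where 0.415% of all genes were called higher and 0.35% lower. In it 5 of the 28 and 1478 of all genes (13.6%) had an unadjusted p under 0.05. With only these 2 genotypes in the fit, 11 of the 28 and 2611 of all genes did. The spread of the double knockout enters the SE of the main fit. Sod1 differed by 0.18, 0.28 and 0.29 at 2, 4 and 8 h, yet its SE was 0.31. Nfe2l2 came nearest to a call, higher by 0.58 ± 0.12 (adjusted p 0.085). It was called when the double knockout was left out of the fit or a trended prior was used. Slc7a11 differed by -0.28 ± 0.16, Sod2 by -0.06 ± 0.15, Mt2 by -0.33 ± 0.18 and Ncf1 by -0.33 ± 0.11, none of them called. Without a test, the 3 stimulated IRAK2-knockout arrays lay wholly above those of wild type for Nfe2l2, Sod1, Cat and Gpx4, 4 genes against a background of 8.07%, and wholly below for 0 genes against 6.08%. In the double knockout 5 genes lay wholly above wild type (23% of all genes) and 11 wholly below (17.5%). The wild-type arrays are shared by both comparisons. No genotype difference was shown to change from 2 to 8 h: fitted slopes on log2 time called 0 of the 28 genes in either knockout (all genes, double knockout 0.0276% higher and 0.111% lower; IRAK2 knockout 0% and 0.00921%). At an unadjusted p under 0.05 there were 4 of the 28 in the double knockout and 1 in the IRAK2 knockout, where 15% and 4.95% of all genes were, so both counts are near the background.

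Probesets of one gene often disagreed on genotype and rarely on time. Of the 28 genes, 19 had at least 2 probesets above the floor. Their double-knockout minus wild-type differences had the same sign in 11 and mixed signs in 8 (Cybb, Gstm1, Prdx2, Sod1, Sqstm1, Srxn1, Txn1 and Txnrd1). The 2 h response had the same sign in 19 of 19 and the 8 h response in 18 of 19.

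**Figure D4:**
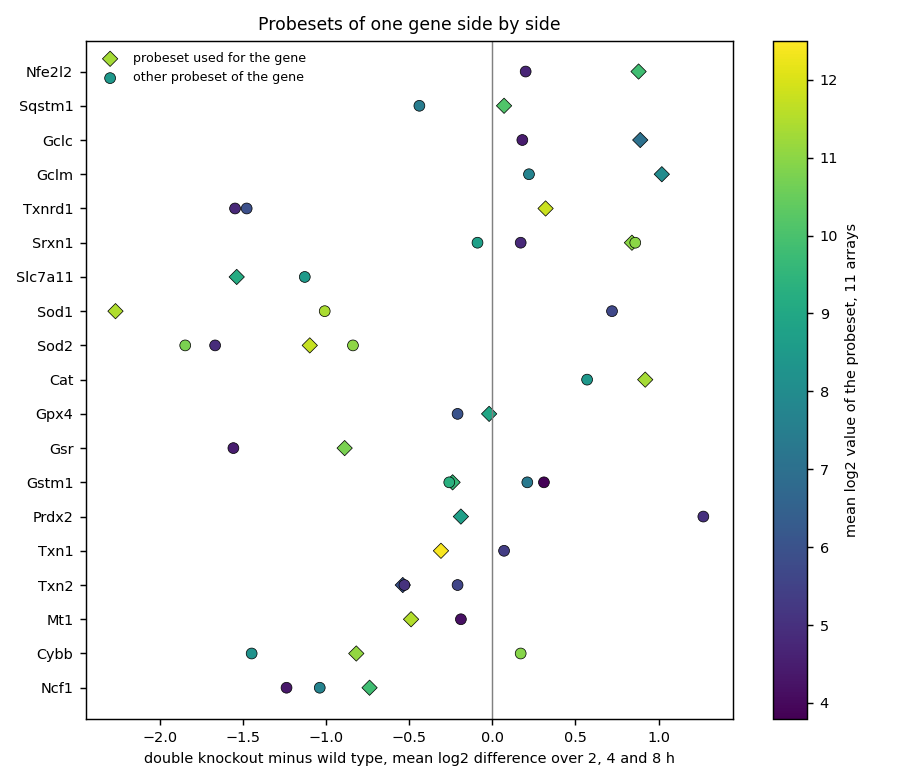
Mean log2 difference of the double knockout from wild type over 2, 4 and 8 h (horizontal axis) for each probeset above the floor, in the 19 genes with more than 1; diamonds are the probesets used, circles the others, and colour is the mean log2 value. Probesets of Sod2, Slc7a11 and Ncf1 lie on the left together, whereas those of Sod1, Cybb, Prdx2 and Txnrd1 fall on both sides of 0.

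A wider list of 57 genes of the same pathways, of which 51 had a probeset, was counted for comparison. With MALP-2, 10 of 44 tested rose and 14 fell at 2 h (22.7% and 31.8%; all genes 16.3% and 29.1%). At 4 h 12 rose and 9 fell (27.3% and 20.5%; all genes 17.3% and 23.2%), and at 8 h 13 rose and 11 fell (29.5% and 25%; all genes 14.7% and 18.1%). In the double knockout 12 of 45 were higher and 12 lower than wild type (26.7% each, all genes 23.7% and 17.3%), so the higher share is near the background. These calls, and the double-knockout differences of the wider genes named below, are without the 5' minus 3' covariate. That covariate cut the calls over all genes from 4457 to 503. In the IRAK2 knockout 1 was higher (Cbr3; 2.22%, all genes 0.415%). Slc39a14, a zinc and iron importer, had the largest response of the list. It read 6.81, 6.76 and 6.07 at 2, 4 and 8 h in the double knockout, 4.85, 7.89, 7.46 and 6.42 from 0 to 8 h in the IRAK2 knockout, against 5.14, 8.35, 8.34 and 7.67 in wild type. It rose 3.12 ± 0.21 at 2 h (adjusted p 2.7e-05) and was 1.57 lower in the double knockout (SE 0.16, adjusted p 0.0002), as the metallothioneins were. Slc30a1, the zinc exporter and a known MTF1 target, read 10.39, 10.95 and 10.88 in the double knockout, 10.26, 8.45, 9.33 and 10.22 in the IRAK2 knockout, against 10.34, 8.09, 9.07 and 9.80 in wild type. It fell by 2.03 at 2 h (SE 0.14, adjusted p 2.7e-05) and was 1.75 ± 0.23 higher in the double knockout (adjusted p 0.00063), the opposite of Mt2 in both comparisons.

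Among further NRF2-linked genes, Me1, which makes NADPH, was higher in the double knockout by 1.71 ± 0.12 (adjusted p 3.6e-05), with 6.78, 7.44 and 7.79 at 2, 4 and 8 h there and 5.22, 5.49 and 6.16 in wild type. Blvrb, a biliverdin reductase, was lower by 1.73 (SE 0.26, adjusted p 0.0012). It read 5.0, 4.64 and 6.46 at 2, 4 and 8 h in the double knockout and 6.53, 7.02 and 7.74 in wild type. Its lowest values fell on the 2 and 4 h double-knockout arrays, which also had the weakest 5' signal. Abcc1, which exports glutathione conjugates, rose 1.80 ± 0.15 at 2 h and was not called between genotypes. Maff, a small Maf partner of NRF2, rose 2.74 ± 0.16 at 2 h (adjusted p 1.4e-05) and was 0.59 lower in the double knockout (SE 0.11, adjusted p 0.004). Sesn1, a stress-responsive sestrin, fell by 2.25 at 2 h (SE 0.29, adjusted p 0.00049) and was 1.67 ± 0.24 higher in the double knockout (adjusted p 0.00093). Rac2, the GTPase that activates the oxidase in leukocytes, was called in the same directions as Cybb at 8 h and in the double knockout. It rose by 1.54 ± 0.16 at 8 h (adjusted p 0.00033) and was lower in the double knockout by 1.95 (SE 0.24, adjusted p 0.00047).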

How the data were processed

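Total RNA (Trizol) was made into biotinylated cRNA with NuGEN Ovation reagents, per the labels' protocols. The deposited log2 values, 1 per probeset and array, were made by the authors with RMA per the submitters' processing notes; the sources used here do not give a version. RMA equalises array distributions, so a shift shared by most genes is not visible. Of 45101 probesets 34945 carry 1 gene symbol, 932 several and 9224 none; 34741 were matched to the reference gene table by gene identifier. Genes with a mean below the floor of 3.83 over the arrays of a fit were not tested.

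Tests used limma 3.58.1 in R 4.3.3, with 4, 3 and 2 residual degrees of freedom for genotype, MALP-2 and slope fits, and Benjamini-Hochberg adjustment over all genes. The fits were tested on simulated data with independent noise of the same spread on every array of a gene. That test does not cover the weaker 5' signal or a larger spread of the double-knockout arrays. With 1 array per group, p-values do not measure the spread between mice. Depth does not apply to arrays; the number of arrays limits the precision. The rule names all 28 genes, up to 8 wider pathway genes with the largest called differences, and Irak1 and Irak2. The genes and lists were chosen with earlier results of these data known. Alternatives were other arrays in the fit, centring, no filter, a trended prior, other probeset rules and leaving out each time.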

Additional observations from a re-analysis of the deposited data

Results flagged for a closer look

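In 4 of the 28 genes every stimulated double-knockout array lay on one side of the mean 0 h value of the IRAK2 knockout and wild type, while every stimulated wild-type array lay on the other side of its own 0 h array. The same held for 10.8% of all genes, so 4 of 28 is near the background. These differences between genotypes were not tested. The mean response of the double knockout minus that of wild type was 0.70 for Nqo1, 0.87 for Cat, -0.93 for Gsr and -0.96 for Ncf4. Nqo1 responded by 0.17, 0.68 and 0.70 at 2, 4 and 8 h in the double knockout and by -0.24, -0.11 and -0.19 in wild type. For Cat the responses were 0.37, 0.66 and 0.68 in the double knockout and -0.26, -0.49 and -0.14 in wild type. Gsr gave -0.75, -0.59 and -0.03 in the double knockout and 0.00, 0.59 and 0.84 in wild type, so its 2 h value in wild type and 8 h value in the double knockout hardly left the baseline. Ncf4 gave -0.45, -0.49 and -0.29 in the double knockout and 0.29, 0.55 and 0.80 in wild type. Because the baseline of the double knockout is borrowed, these values hold any constant difference of genotype or array.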

How the results depend on the processing

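No paired analysis was possible because the labels carry no replicate numbers and each group has 1 array. Genes called between the IRAK2 knockout and wild type numbered 143 with 11 arrays, 6 with 12, 553 with only these 2 genotypes, and 6 to 14 when each time was left out (leave-one-out), and 1 of the 28 redox genes was called with the 2 genotypes and 1 with a trended prior. Between the double knockout and wild type 1161 genes and 7 redox genes were called with 12 arrays, 503 and 3 with the 5' minus 3' covariate, and 2111 to 4049 genes when each time was left out. Between the double knockout and the IRAK2 knockout 1004 genes and 5 redox genes were called with 12 arrays, 432 and 2 with the covariate, and 1572 to 3996 genes and 10 to 21 redox genes when each time was left out. For double-knockout slopes 41 genes were called without the filter, and 132 genes and 1 redox gene with a trended prior. Against the substitute baseline, the mean of a gene's probesets put 4 redox genes above it at 4 h and 0 below it at 8 h.

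A direction is named as reversed only where the main or the alternative fit made a call. Directions of double knockout minus wild type were reversed for Sqstm1 (-0.44) without probesets matching several transcripts, for Txnrd1 (-0.90) and Prdx2 (0.54) with the mean of probesets above the floor, and for Srxn1 (-0.47) with 12 arrays. Against the IRAK2 knockout they were reversed for Txnrd1 (-0.85) and Prdx2 (0.87) with that mean and for Srxn1 (-0.58) and Ncf1 (0.04) with 12 arrays. With no call in either fit, signs also changed against wild type for Hmox1, Sqstm1, Gstm1, Txnrd1, Gpx4 and Mgst1. Against the IRAK2 knockout such changes were seen for Gclc, Gstm1, Mgst1, Nqo1 and Txnrd1. The covariate and the mean of probesets above the floor were chosen after seeing the data; the cause of these changes was not tested. The floor limits what can be read of dim probesets.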
